A study of Homo sapiens with 9 samples.

Results

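The MYB family of transcription factors comprises 3 human genes, MYB, MYBL1 and MYBL2, and was followed across 9 RNA-seq libraries of MCF10A cells, a human mammary epithelial line that is immortal but not tumorigenic. The 3 genes were matched by gene identifier (MYB, ENSG00000118513.18; MYBL1, ENSG00000185697.16; MYBL2, ENSG00000101057.15) among 60308 identifiers, and all 3 were among the 18435 genes that passed the filter on low counts. The family was chosen from earlier results of these libraries, taken here to be the lower level of MYB with 1 hairpin. The levels and fold changes of the 3 genes are therefore a description, with no p-value.

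Every culture carried ectopic MYC and PI3KH1047R, a mutant form of PI3K, and received 2 µg/mL doxycycline for 72 hours to induce a hairpin from an integrated vector. The hairpins were shG9a_1 and shG9a_4, both against EHMT2, which encodes the histone methyltransferase G9a, and shSCR, a scrambled control, with 3 replicates each that the series' design text calls biological. The cells were thus a MYC-driven and PI3K-driven model in all 3 groups, and cells without the ectopic genes were not analysed here. The study's title concerns repression of transcription by MYC and G9a, and the comparisons ask which genes differed after EHMT2 knockdown.

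The 3 proteins share an N-terminal DNA-binding domain of MYB repeats that recognises a common short core motif, and differ in where they act. MYB (c-MYB) maintains blood progenitors and colon crypt cells, and in the breast it is known as a target of the oestrogen receptor in luminal cells. MYBL1 (A-MYB) is the master regulator of meiosis and piRNA genes in the male germ line, and MYBL2 (B-MYB) is expressed in most dividing cells, where it joins the MuvB core and FOXM1 to activate genes of G2 and mitosis. The genes of MYB and MYBL2 are themselves known targets of E2F factors, and quiescent cells repress MYBL2 through the DREAM complex, which is MuvB with a pocket protein and E2F4 or E2F5.

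The promoters of MYB and MYBL2 are shown because both carry the letters of an E2F-type site close to the start of the gene. The window of MYBL1 is not given here, so no contrast with MYBL1 is drawn from these letters. Each window runs from 250 bases before to 50 bases after the RefSeq start, on build GRCh38.p14, and lies on the plus strand. It covers chr6:135181058-135181357 for MYB and chr20:43666864-43667163 for MYBL2. Capitals mark the site TTGGCGGGA in both, and the E-box CACGTG, the motif of MYC and MAX, in MYBL2.
MYB: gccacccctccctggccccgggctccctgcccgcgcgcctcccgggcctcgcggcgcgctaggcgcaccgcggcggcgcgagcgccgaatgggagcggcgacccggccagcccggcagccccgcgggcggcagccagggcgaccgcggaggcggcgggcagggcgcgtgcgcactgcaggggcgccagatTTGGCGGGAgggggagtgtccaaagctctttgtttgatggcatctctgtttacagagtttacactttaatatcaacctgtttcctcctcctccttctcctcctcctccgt
MYBL2: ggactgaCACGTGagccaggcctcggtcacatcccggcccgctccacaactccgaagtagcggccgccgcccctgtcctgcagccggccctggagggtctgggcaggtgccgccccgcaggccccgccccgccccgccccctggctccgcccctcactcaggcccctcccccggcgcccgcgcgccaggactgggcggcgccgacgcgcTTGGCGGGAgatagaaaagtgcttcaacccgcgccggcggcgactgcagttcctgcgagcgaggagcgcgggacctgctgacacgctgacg
The E2F-type letters TTGGCGGGA lay 60 to 52 bases before the start in MYB and 41 to 33 bases before it in MYBL2. This 9-letter form was picked after the windows had been read. It was found, on either strand, in 95 of 27305 promoter windows of the same length (0.348%). The 9-letter form was in 3 of 23 windows of G1/S genes (13.0%) and in 0 of 27 windows of the G2/M genes. The shorter core GGCGGGA, which it contains, was in 15.5% of all windows, in 13 of 23 windows of G1/S genes (56.5%) and in 6 of 27 of the G2/M genes (22.2%). The E-box of MYBL2 lay 243 to 238 bases before the start. CACGTG was present in 7.43% of all windows, in 3 of 23 of the G1/S genes (13.0%) and in 4 of 27 of the G2/M genes (14.8%). The MYB core AACNG, where N is any base, was found 2 times in the window of MYB and 1 time in that of MYBL2, and in 77.1% of all windows. The letters TTTGAA, the CHR element through which MuvB binds late cell cycle promoters, were in neither window, in 15.4% of all windows and in 17 of 27 windows of the G2/M genes (63.0%). These matches describe letters, not bound sites.

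The libraries held 53065611 to 76958831 reads in genes, with 26759 to 28346 genes with a read. EHMT2, which checks the labels, was at 20.4 ± 2.59 CPM in shG9a_1, 30.9 ± 3.32 CPM in shG9a_4 and 47.3 ± 3.35 CPM in shSCR (SD, n = 3 each), where CPM is a gene's read count relative to the scaled size of its library. By edgeR's quasi-likelihood test it fell in shG9a_1, by 1.21 on the log2 scale (SE 0.11, adjusted p = 0.00766), and in shG9a_4 its log2 fold change of −0.61 (SE 0.11) had an adjusted p of 0.259. All 10 basal mammary markers passed the filter on low counts, with a summed level of 5910 to 7738 CPM in shG9a_1, 4784 to 7009 CPM in shG9a_4 and 4803 to 6664 CPM in shSCR. Of 12 luminal markers 7 passed it (ESR1, GATA3, FOXA1, KRT8, KRT18, XBP1 and PRLR), and PGR, KRT19, TFF1, ELF5 and ANKRD30A averaged under 0.1 CPM. Luminal markers summed to 575 to 715, 537 to 632 and 535 to 596 CPM in shG9a_1, shG9a_4 and shSCR. Of 12 blood cell markers 8 averaged under 0.1 CPM, among them PTPRC, and HBB had 0 reads in every library. CD14 and CD34 passed the filter. CD14 was at 4.00, 4.07 and 3.77 CPM in shG9a_1, shG9a_4 and shSCR, most of the blood sum. CD34 was at 0.215, 0.123 and 0.177 CPM. The blood markers summed to 2.68 to 6.99, 3.41 to 5.24 and 3.37 to 4.78 CPM in the same order, fibroblast markers to 242 to 467, 175 to 469 and 191 to 376 CPM, and endothelial markers to 2.12 to 3.00, 1.76 to 2.22 and 1.40 to 1.99 CPM. Of the 10 basal markers 9 were higher in shG9a_1 and 9 in shG9a_4, with median log2 fold changes of 0.25 and 0.30. Of the 7 luminal markers that passed the filter, 6 were higher in shG9a_1 and 4 in shG9a_4, with medians of 0.14 and 0.077. The 6 fibroblast markers that passed the filter were all higher in both, with medians of 0.36 and 0.14. The 2 endothelial markers that passed it, KDR and TEK, supplied most of their list's sum. They were higher in both hairpins, with medians of 0.65 and 0.25. Of the 2 blood markers that passed it, 2 were higher in shG9a_1 and 1 in shG9a_4. None of these markers was called in edgeR without the replicate block. The fibroblast sum was mostly DCN, at 338, 280 and 252 CPM in shG9a_1, shG9a_4 and shSCR, while COL1A2, PDGFRA and THY1 averaged under 0.1 CPM. KRT14, a basal keratin with near-identical copies that can share its reads, was at 60.2 ± 23.1 CPM in shG9a_1, 54.3 ± 16.4 CPM in shG9a_4 and 33.4 ± 14.1 CPM in shSCR. Its log2 fold change was 0.85 (SE 0.34) in shG9a_1 and 0.70 (SE 0.34) in shG9a_4, and with the replicate block, under which edgeR called it in both, 0.87 (SE 0.10) and 0.74 (SE 0.10). The part of these markers in the levels of the MYB family was not tested. In such bulk RNA, fewer cells that express a gene and less RNA per cell cannot be told apart.

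Per length, the 3 genes ranked MYBL2, MYBL1 and MYB in every group. MYBL2 averaged 39.3 ± 5.32, 38.1 ± 7.67 and 41.9 ± 1.23 RPKM (CPM divided by the exon length in kilobases) in shG9a_1, shG9a_4 and shSCR (SD, n = 3 each), which put its mean at the percentile 94.0 of the genes tested. MYBL1 averaged 3.67 ± 0.288, 3.86 ± 0.346 and 2.88 ± 0.109 RPKM, at the percentile 55.9. MYB averaged 0.552 ± 0.1004, 0.664 ± 0.0967 and 0.853 ± 0.169 RPKM, at the percentile 31.2. Neighbours in this order did not overlap in any library. MYBL2 supplied 90.3 ± 0.933% of the summed level of the family in shG9a_1, 89.1 ± 2.56% in shG9a_4 and 91.8 ± 0.22% in shSCR.

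MYB, the member taken here to have led to the choice of the family, had 3.04, 2.48 and 3.58 CPM in shG9a_1, 3.45, 3.25 and 4.25 CPM in shG9a_4, and 5.11, 3.62 and 5.33 CPM in shSCR, in the order of replicates 1, 2 and 3. The 3 shG9a_1 libraries were all below the 3 shSCR libraries, by the narrow margin between shG9a_1 replicate 3 and shSCR replicate 2. The shG9a_4 libraries overlapped with shSCR, whose replicate 2 was low. The group means were 3.03 ± 0.552 CPM in shG9a_1, 3.65 ± 0.531 CPM in shG9a_4 and 4.69 ± 0.927 CPM in shSCR. Against shSCR the log2 fold change of MYB was −0.63 (SE 0.19) in shG9a_1 and −0.36 (SE 0.19) in shG9a_4, or 35.3% and 22.1% lower. Between the hairpins, shG9a_4 over shG9a_1, it was 0.27 (SE 0.20), and those libraries overlapped.

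Replicate 2 was the lowest library of MYB in each of the 3 groups and replicate 3 the highest. Within the same replicate number, MYB was lower in 3 of 3 pairs with each hairpin, by 0.75, 0.55 and 0.57 on the log2 scale in shG9a_1 and by 0.57, 0.16 and 0.33 in shG9a_4 for numbers 1, 2 and 3. The replicate number as a block left the estimates at −0.63 (SE 0.12) and −0.35 (SE 0.12). MYB was counted from few reads, 168 to 331 per library, so counting error alone comes to 5.50 to 7.72% of a library's level. The spread between replicates was larger, with a coefficient of variation of 14.6 to 19.8% within groups.

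**Figure D1:**
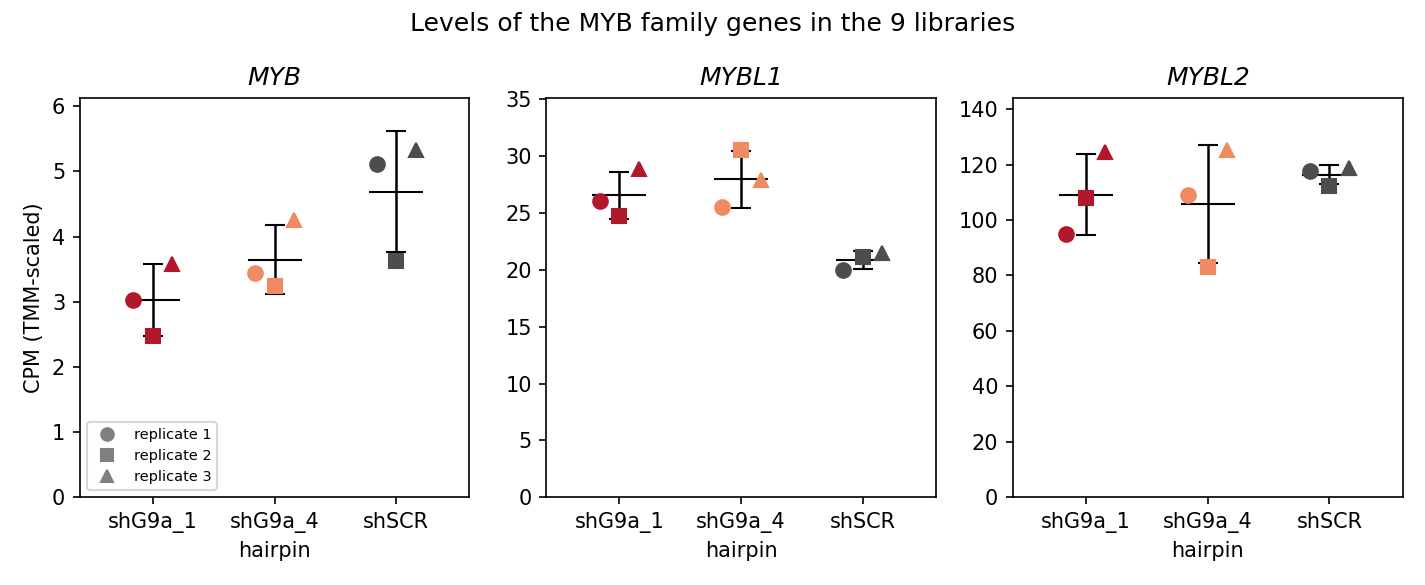
Level of each MYB family gene in CPM (vertical axes, each from 0) in the 3 libraries of each hairpin; marker shapes give the replicate number, and bars the mean ± SD. MYB lies lower in shG9a_1 than in shSCR with no overlap, MYBL1 lies higher in each of the 6 knockdown libraries than in any shSCR library, and MYBL2 overlaps.

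MYBL1 had 26.04, 24.8 and 28.8 CPM in shG9a_1, 25.5, 30.5 and 27.9 CPM in shG9a_4, and 19.996, 21.1 and 21.5 CPM in shSCR. All 6 knockdown libraries were above all 3 shSCR libraries, whose own range was narrow. The means were 26.6 ± 2.09 CPM in shG9a_1, 27.97 ± 2.503 CPM in shG9a_4 and 20.9 ± 0.789 CPM in shSCR. The log2 fold change was 0.35 (SE 0.09) in shG9a_1 and 0.42 (SE 0.09) in shG9a_4, or 27.1% and 33.9% higher, and 0.075 (SE 0.09) between shG9a_4 and shG9a_1. MYBL1 was higher in 3 of 3 pairs of the same replicate number with each hairpin. It rested on 1155 to 1940 reads per library.

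The direction of MYBL1 was the opposite of that of MYB in each hairpin. Per length, MYBL1 stood at 6.73 ± 0.759 times the level of MYB in shG9a_1, 5.91 ± 1.11 times in shG9a_4 and 3.49 ± 0.813 times in shSCR. Both hairpins were compared with the same 3 shSCR libraries, so the fold changes of a gene in the 2 comparisons are not independent.

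MYBL2 had 95.1, 108 and 125 CPM in shG9a_1, 109, 83.04 and 125 CPM in shG9a_4, and 118, 112 and 119 CPM in shSCR. The 2 knockdown groups spread on either side of the shSCR libraries, which lay close together. The means were 109 ± 14.8 CPM in shG9a_1, 106 ± 21.3 CPM in shG9a_4 and 116 ± 3.40 CPM in shSCR. The log2 fold changes were −0.091 (SE 0.14) in shG9a_1 and −0.14 (SE 0.14) in shG9a_4, each about as large as its SE or smaller, and −0.045 (SE 0.14) between the hairpins. Within the same replicate number, MYBL2 was higher than shSCR in replicate 3 of both hairpins and lower in replicates 1 and 2. With 5245 to 8653 reads per library, its coefficient of variation was 2.93% in the tightest group and 20.1% in the widest.

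**Figure D2:**
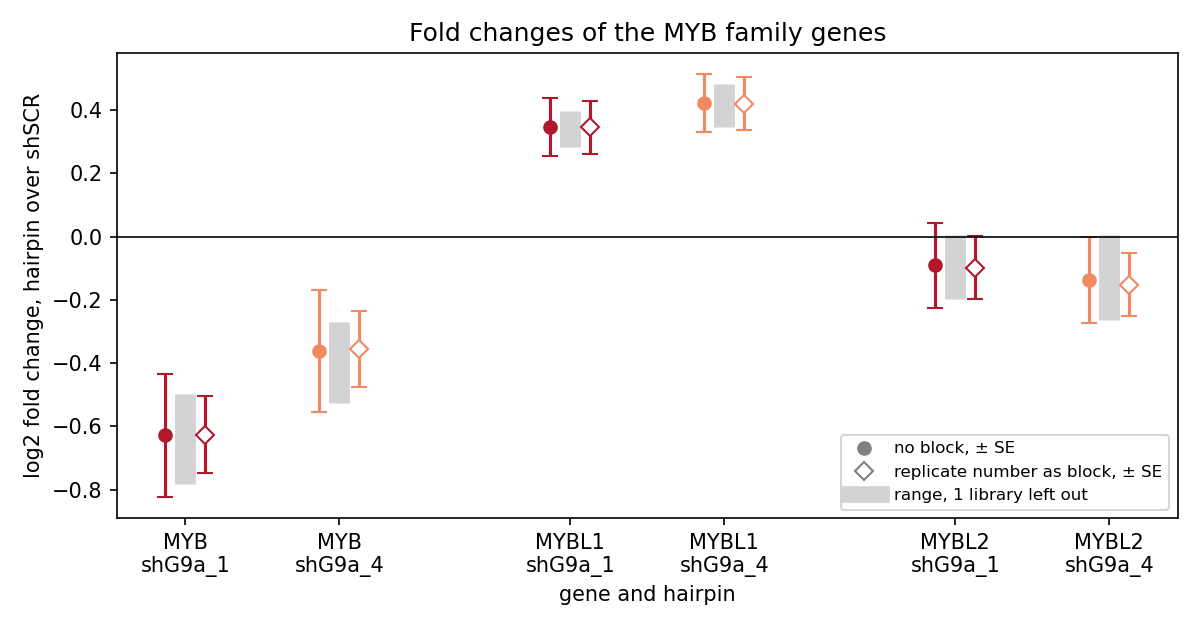
Log2 fold change of each MYB family gene over shSCR (vertical axis) for shG9a_1 and shG9a_4; filled circles are the fit without a block and open diamonds the fit with the replicate number as a block, both ± SE, and grey bars the range when 1 library was left out. MYB stays below 0 at −0.78 to −0.27, MYBL1 above 0 at 0.28 to 0.48, and MYBL2 reaches 0.

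No MYB family gene passed the adjusted threshold of 0.05 in edgeR, in either hairpin or between the hairpins. Over all genes, 7 of 18435 (0.0380%) were called in shG9a_1, 5 (0.0271%) in shG9a_4 and 0 (0.00%) between the hairpins, where 754 genes had an unadjusted p under 0.05 and DESeq2 called 6. With the replicate block MYB was called in shG9a_1, where 143 genes were (0.776%), and none of the 3 in shG9a_4, where 14 were (0.0759%). That call of MYB was lost in 8 of 9 fits that each left out 1 library, and held without shG9a_4 replicate 2. DESeq2 called none of the 3 in shG9a_1, where it called 69 genes (0.374%), and MYBL1 in shG9a_4, where it called 21 (0.114%). Since the family was chosen with these contrasts in view, nothing is read from the counts.

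Non-overlap of the libraries was common over the table. All 3 shG9a_1 libraries were below all 3 shSCR libraries for 7.54% of genes, as for MYB, and above them for 7.15%, as for MYBL1. In shG9a_4 the shares were 3.18% below and 3.25% above, as for MYBL1. All 6 knockdown libraries were above the 3 shSCR libraries for 236 genes (1.28%).

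The authors' deposited table for each hairpin gives a posterior probability of differential expression (PPDE, a score from 0 to 1) and a linear fold over shSCR. In the authors' deposited table, MYBL1 had a PPDE of 0.99963 in shG9a_1 and 0.99525 in shG9a_4, with folds of 1.26 and 1.33. MYB had a PPDE of 0.430 in shG9a_1 and 0.00534 in shG9a_4 in the authors' deposited table, with folds of 0.654 and 0.782. For MYBL2 the authors' deposited table lists 0.00222 and 0.00035, with folds of 0.932 and 0.907. A PPDE of at least 0.95 was given to 322 of 10748 genes (3.00%) in shG9a_1 and to 66 of 10745 (0.614%) in shG9a_4 in the authors' deposited table. These scores belong to the same series from which the family was chosen. They are no separate evidence, and nothing is read from them.

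MYB-AS1, annotated antisense to MYB, had 0 reads on its own strand in all 9 libraries, which allows up to 0.0390 to 0.0559 CPM per library (3 counts, counting error only). The library kit and the counting were stranded, so the reads of MYB are separate from any antisense RNA. The protein-coding genes next to MYB, HBS1L and AHI1, were within 1 SE of shSCR: HBS1L differed by 0.013 and 0.018 on the log2 scale in shG9a_1 and shG9a_4, and AHI1 by 0.032 and 0.013. IFT52, next to MYBL2, was at 0.015 and −0.030. GTSF1L, on the other side of MYBL2, had 0 reads in each group. VCPIP1, next to MYBL1, was at 0.16 (SE 0.08) and 0.11 (SE 0.08), the same sign as MYBL1 and a smaller size. VXN, on the other side of MYBL1, was not among the listed genes and is not given. The other listed neighbours do not directly adjoin a member. Of these, L3MBTL1, a chromatin reader, was at −0.30 (SE 0.15) and −0.14, the kinase SGK3 at 0.18 (SE 0.14) and 0.028, and JPH2, a junctophilin, at 0.22 (SE 0.18) and 0.20 (SE 0.18). COPS5, a subunit of the COP9 signalosome, was at −0.041 and 0.062 (SE 0.07), and SRSF6, a splicing factor, at −0.074 and 0.0028. None of the neighbours that passed the filter (10 of 14 listed) passed the threshold in edgeR.

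Genes around the family were described from 10 lists with 188 genes, of which 158 passed the filter on low counts and are called detected here. None passed the threshold in edgeR in shG9a_1, shG9a_4 or between the hairpins. At an unadjusted p under 0.05 there were 13, 3 and 7 of them (8.23%, 1.90% and 4.43%), against 1382, 438 and 754 over all genes (7.50%, 2.38% and 4.09%). With the replicate block 2 passed in shG9a_1 and 1 in shG9a_4, and DESeq2 called none. Medians below are to be read beside the median log2 fold change of all genes, which was 0.00086 in shG9a_1 and 0.0021 in shG9a_4. Counts in each direction are to be read beside the share of all genes that were higher, 50.2% and 50.8%. Genes of a list can vary together, so such counts are not of separate observations.

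The partners of MYBL2 were all detected. The MuvB core genes LIN9, LIN37, LIN52, LIN54 and RBBP4 stood, as log2 fold changes over shSCR, at −0.22 (SE 0.09), −0.20, −0.11, −0.0039 and −0.095 in shG9a_1. With shG9a_4 they stood at −0.043, −0.21, −0.11, −0.0019 and −0.0090. FOXM1, the mitotic factor recruited by MYBL2 and MuvB, was at 98.9 ± 10.5 CPM in shG9a_1, 110 ± 8.59 CPM in shG9a_4 and 107 ± 4.26 CPM in shSCR. Its log2 fold change was −0.12 (SE 0.09) in shG9a_1 and 0.032 (SE 0.09) in shG9a_4. Of the DREAM subunits, the pocket protein RBL2 was at 0.013 (SE 0.09) and 0.058 (SE 0.09), E2F5 at 0.039 (SE 0.12) and 0.15 (SE 0.12), and TFDP1, the dimer partner of E2F factors, at −0.056 and 0.018. Over the 13 genes of MuvB, DREAM and FOXM1, 3 were higher and 10 lower in shG9a_1, with a median of −0.051. In shG9a_4 6 were higher and 7 lower, with a median of −0.0019. Per length, TFDP1 was the only gene of this list above MYBL2, at 68.5 RPKM over all libraries, while MYB stood next to LIN37, the lowest at 0.544 RPKM.

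**Figure D3:**
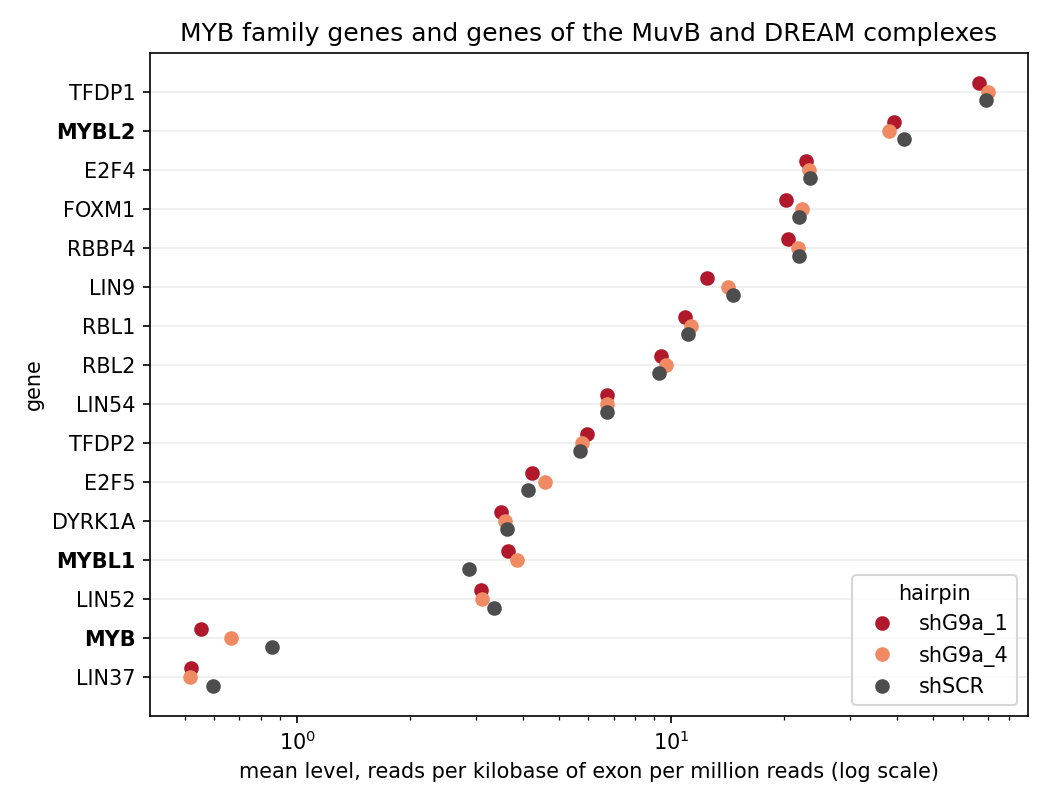
Mean level per length (horizontal axis, log scale) of the MYB family genes, in bold, and of 13 genes of the MuvB and DREAM complexes and FOXM1, with a point per hairpin. MYBL2 ranks just below TFDP1 at the top, and MYB just above LIN37 at the bottom.

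None of the 32 G2/M genes known to be bound by MYBL2 with MuvB and FOXM1 passed the threshold in edgeR. Of the 32, 6 were higher and 26 lower in shG9a_1, with a median of −0.060, and 21 were higher and 11 lower in shG9a_4, with a median of 0.028. HMMR, a spindle protein, was at 190 ± 1.61 CPM in shG9a_1, 212 ± 19.8 CPM in shG9a_4 and 214 ± 7.89 CPM in shSCR, a log2 fold change of −0.17 (SE 0.07) in shG9a_1. CCNB1, the mitotic cyclin B1, had log2 fold changes of −0.11 (SE 0.07) and −0.017, and CENPF, a kinetochore protein, of −0.13 (SE 0.10) and 0.067. TOP2A, the topoisomerase that untangles chromosomes, was at 0.0032 and 0.094 (SE 0.08 each). The checkpoint kinases TTK and BUB1B were at −0.18 (SE 0.08) and −0.13 (SE 0.07) in shG9a_1 and at −0.048 and −0.036 in shG9a_4. ASPM, a spindle pole protein, was at −0.13 (SE 0.08) and 0.033. In shG9a_4 the mitotic kinase AURKA stood at 0.11 (SE 0.08), the phosphatase CDC25C at 0.080 (SE 0.07) and the mitotic cyclin CCNB2 at 0.073 (SE 0.07), and in shG9a_1 they stood at 0.059, −0.025 and −0.024. The median of the list thus differed in sign between the hairpins, and this difference was not tested.

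Of 27 G1/S genes driven by E2F factors, 3 were higher and 24 lower in shG9a_1, with a median of −0.087. In shG9a_4 2 were higher and 25 lower, with a median of −0.066. GINS2, a subunit of the replicative helicase, was at 45.05 ± 4.07 CPM in shG9a_1, 47.9 ± 1.44 CPM in shG9a_4 and 52.4 ± 2.46 CPM in shSCR. Its log2 fold change was −0.22 (SE 0.08) in shG9a_1 and −0.13 (SE 0.08) in shG9a_4. MCM3, another helicase subunit, had −0.19 (SE 0.07) and −0.056, and CDC25A, the phosphatase that activates CDK2, −0.22 (SE 0.08) and −0.15 (SE 0.08). The helicase subunits MCM2 and MCM4 were at −0.16 (SE 0.08) and −0.099 (SE 0.07) in shG9a_1 and at −0.12 (SE 0.08) and −0.053 in shG9a_4. RRM1 and RRM2, the subunits of ribonucleotide reductase, were at −0.030 and −0.052 in shG9a_1 and at 0.0032 and −0.084 (SE 0.08) in shG9a_4. PCNA, the sliding clamp, had 0.16 (SE 0.07) and 0.22 (SE 0.07), and its reads can be lost to near-identical pseudogenes. The 2 comparisons share their shSCR libraries, and none of these genes passed the threshold in edgeR.

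The 7 genes that activate MYBL2 or govern its turnover were at −0.15 to 0.027 in shG9a_1 and −0.087 to 0.12 in shG9a_4. CCNA2, the cyclin whose kinase phosphorylates MYBL2, had log2 fold changes of −0.12 (SE 0.08) and −0.025, CDK2 of −0.034 and −0.029, and CCNF, which restrains MYBL2, of −0.15 (SE 0.09) and −0.075. SKP2, a subunit of a ubiquitin ligase, was at 0.0021 and 0.12 (SE 0.07), CCNE1 at −0.073 and −0.087 (SE 0.09), and CCNE2 at −0.019 and −0.054 (SE 0.08), the last pair being the E-type cyclins of CDK2. Of 11 other proteins with a MYB-type or SANT domain, 3 were higher in shG9a_1 and 7 in shG9a_4, with medians of −0.054 and 0.020. In these libraries DMTF1, the cyclin D-binding MYB-like factor, was at −0.054 and 0.10, and CDC5L, a MYB-related splicing factor, at −0.086 and −0.021. The ribosome-associated chaperone DNAJC2 stood at −0.13 (SE 0.06) in shG9a_1 and 0.0087 in shG9a_4, and DNAJC1, a chaperone of the endoplasmic reticulum, at 0.17 (SE 0.08) and 0.075. MYSM1, a histone H2A deubiquitinase, stood at −0.12 (SE 0.09) and 0.032, and TERF2, which caps telomeres, at −0.083 and −0.093 (SE 0.08). MYPOP stood at 0.031 and 0.17 (SE 0.17), and ZZZ3 at −0.030 and −0.033 (SE 0.08).

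Genes reported as MYB targets in other cells were mixed. Of 22 listed 16 were detected, while KIT, MPO, ELANE, TAL1, CD4 and RAG2, known from blood cells, were below the filter. In shG9a_1 7 were higher and 9 lower, with a median of −0.017, and in shG9a_4 8 were higher and 8 lower, with a median of 0.0036. PTGS2, the inducible cyclooxygenase, was at 23.1 ± 10.9 CPM in shG9a_1, 19.9 ± 9.69 CPM in shG9a_4 and 37.1 ± 21.4 CPM in shSCR. Its log2 fold changes were −0.68 (SE 0.52) and −0.89 (SE 0.53), with −0.61 (SE 0.12) and −0.84 (SE 0.12) under the replicate block. It was called in both hairpins with the block and without the filter only. CXCR4, a chemokine receptor, was at 2.16 ± 0.608 CPM in shG9a_1, 3.40 ± 0.942 CPM in shG9a_4 and 1.90 ± 0.359 CPM in shSCR. Its log2 fold change was 0.19 (SE 0.26) in shG9a_1 and 0.84 (SE 0.26) in shG9a_4. CXCR4 passed in shG9a_4 without the filter only. ANPEP, an aminopeptidase also known as CD13, was at 0.18 (SE 0.09) and 0.035, MAT2A, which makes S-adenosylmethionine, at −0.17 (SE 0.11) and 0.035, and MYC, counted with its ectopic copy, at −0.032 (SE 0.13) and −0.026 (SE 0.13). CDK6, a G1 kinase, was at 0.098 (SE 0.08) and 0.037, SNAI2, which encodes the transcription factor SLUG, at 0.045 and −0.30 (SE 0.22), and HSPA5, a chaperone of the endoplasmic reticulum, at 0.040 and 0.020 (SE 0.11 each). CCNE1, also on this list, is given above.

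No cofactor of MYB passed the threshold in edgeR. Of 24 detected of 25, 11 were higher in shG9a_1 with a median of −0.019, and 9 in shG9a_4 with a median of −0.035. ETS2, a partner factor at shared promoters, had −0.18 (SE 0.09) and 0.011, PSIP1, which tethers MYB with menin and MLL, −0.15 (SE 0.07) and −0.012, and MYBBP1A, a MYB-binding nucleolar protein, 0.011 and −0.032 (SE 0.14 each). PPID, a cyclophilin, stood at −0.12 (SE 0.07) in shG9a_1 and −0.053 in shG9a_4. The corepressor SIN3A stood at −0.097 and −0.086 (SE 0.07), and the remodelling ATPase CHD4 at −0.12 (SE 0.08) and −0.040. CEBPB, a partner factor, stood at −0.054 and −0.079 (SE 0.08 each), the kinase HIPK2 at 0.093 and −0.088 (SE 0.09 each), and the coactivator SND1 at 0.094 (SE 0.06) and 0.0018.

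Of 21 genes listed here under regulators of the MYB locus 16 were detected. Of these, 10 were higher in shG9a_1 and 6 in shG9a_4, with medians of 0.039 and −0.0089. The role of each listed gene at that locus was not tested. ESR1, the oestrogen receptor that relieves a transcription block within MYB in luminal breast cancer, was at a low level, with 0.359 ± 0.0365 CPM in shG9a_1, 0.257 ± 0.095 CPM in shG9a_4 and 0.189 ± 0.0946 CPM in shSCR. Its log2 fold changes were 0.97 (SE 0.39) and 0.47 (SE 0.40), from 66, 49 and 35 reads in total in shG9a_1, shG9a_4 and shSCR. JUN, an AP-1 subunit, was at 22.7 ± 2.27 CPM in shG9a_1, 17.9 ± 3.72 CPM in shG9a_4 and 15.3 ± 0.937 CPM in shSCR. JUN had log2 fold changes of 0.56 (SE 0.14) and 0.22 (SE 0.14), with 0.56 (SE 0.11) and 0.21 (SE 0.11) under the replicate block, and was called in shG9a_1 with the replicate block and without the filter. RELB, a subunit of NF-kB, was at 0.32 (SE 0.14) and −0.036, and BCL11A at −0.44 (SE 0.20) and −0.019. The repressor ZEB1 stood at 0.24 (SE 0.15) and 0.12, the homeobox factor MEIS1 at −0.14 and −0.14 (SE 0.11 each), ETS1 at 0.056 and −0.10 (SE 0.11), and NFKB1, another NF-kB subunit, at 0.055 and 0.045 (SE 0.07 each).

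The germ line genes that MYBL1 is known to drive in the testis, chosen after the level of MYBL1 had been seen, were mostly below the filter on low counts. Of 25 genes of the piRNA pathway and meiosis 10 were detected, and the genes not detected include PIWIL1, PIWIL2, MOV10L1, DDX4 and SYCP1. Of the 10, 4 were higher and 6 lower in shG9a_1, with a median of −0.039, and 5 were higher and 5 lower in shG9a_4, with a median of 0.014. TDRD9, a piRNA pathway helicase, was at 0.703 ± 0.265, 0.552 ± 0.249 and 0.347 ± 0.187 CPM in shG9a_1, shG9a_4 and shSCR, which gives log2 fold changes of 0.99 (SE 0.43) and 0.62 (SE 0.44). PLD6, a mitochondrial enzyme of piRNA processing, was at 10.1 ± 1.03, 10.4 ± 0.178 and 12.6 ± 0.563 CPM, which gives −0.31 (SE 0.10) and −0.27 (SE 0.10). The synaptonemal complex genes SYCP2 and SYCP3 were at −0.64 (SE 0.25) and 0.58 (SE 0.45) in shG9a_1 and at −0.23 (SE 0.24) and 0.47 (SE 0.45) in shG9a_4. TDRKH, a piRNA pathway scaffold, was at 0.17 (SE 0.10) and 0.074, CCNA1, the germ line cyclin A, at −0.038 and 0.064 (SE 0.21), and CLGN, a testis chaperone, at −0.12 and −0.036 (SE 0.17 each). None of the 10 passed the threshold in edgeR or DESeq2, or with the block.

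**Figure D4:**
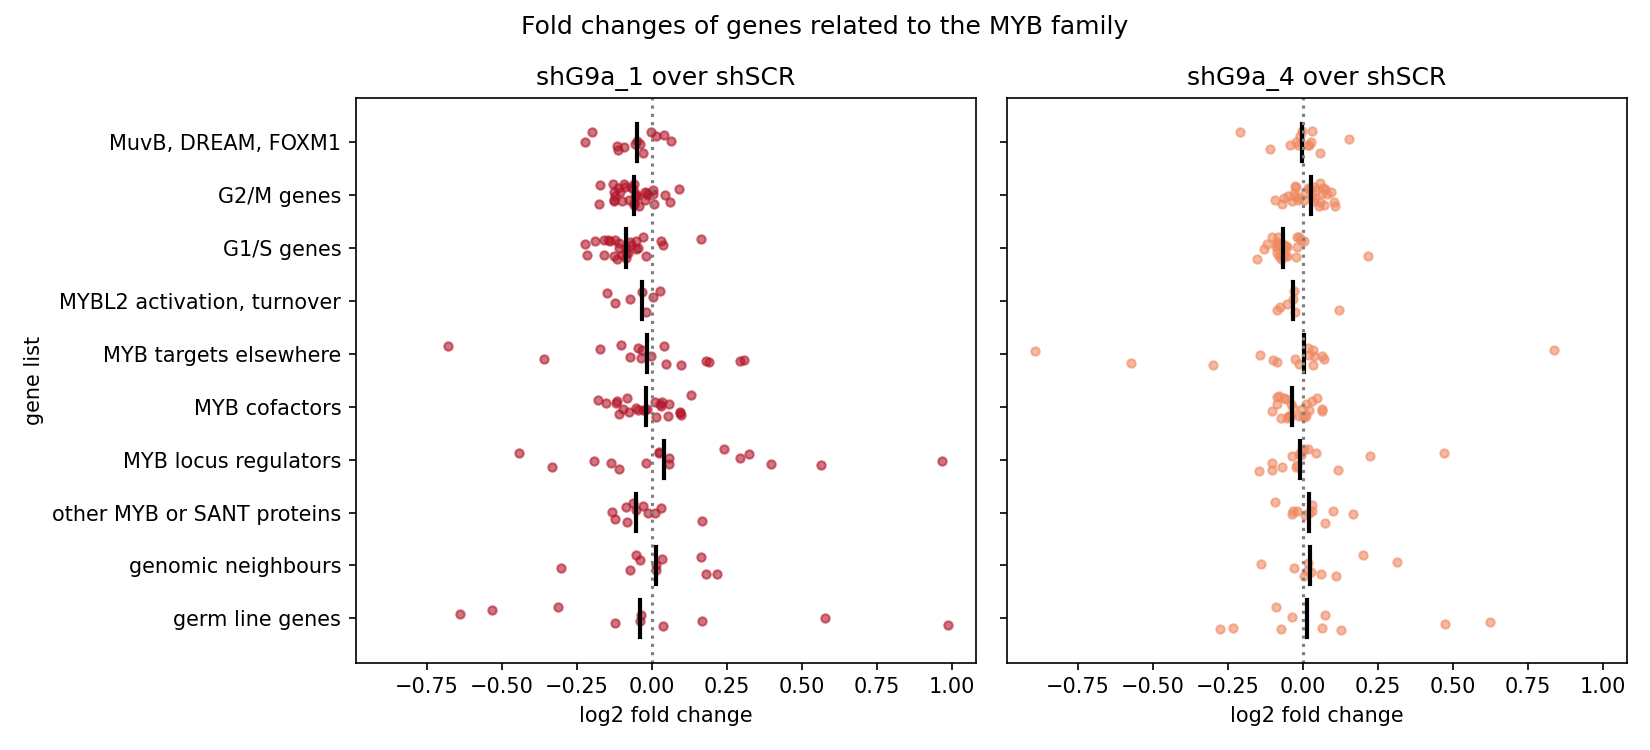
Log2 fold change over shSCR (horizontal axis) of each detected gene in 10 lists related to the MYB family (rows), for shG9a_1 on the left and shG9a_4 on the right; black bars are list medians and the dotted line is the median of all genes. Of 27 G1/S genes, 24 in shG9a_1 and 25 in shG9a_4 lie below 0, with medians of −0.087 and −0.066. The other medians lie between −0.060 and 0.039. Among all genes, 50.2% in shG9a_1 and 50.8% in shG9a_4 lie above 0. No G1/S gene was called in edgeR.

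Genes that resembled each member were ranked by the Pearson correlation of log2(CPM + 0.5) over the 9 libraries among 13004 genes with a mean of at least 1 CPM, as a description. The libraries share hairpins and replicate numbers, and so do these correlations. The ranking and the fold changes use the same libraries, so a sign shared with the member largely follows from the ranking. For MYB the nearest were PAXIP1 (r = 0.966), TNRC6C (0.963), CMTM4 (0.963), RAD54L (0.963) and SNRPF (0.957), with log2 fold changes of −0.18, −0.35, −0.32, −0.35 and −0.20 in shG9a_1. For MYBL1 they were CLOCK (r = 0.968), OSBPL11 (0.960), TMEM33 (0.960), ENTPD4 (0.955) and SOAT1 (0.947), with log2 fold changes of 0.20 to 0.40 in shG9a_1. For MYBL2 they were PPP1R26 (r = 0.981), SCARA3 (0.969), HMGA1 (0.969), NBEAL2 (0.968) and H2AC11 (0.966), the last a histone gene with near-identical copies. In deviations from the group means, which leave out the hairpin, RAD54L and PAXIP1 ranked 1 and 2 for MYB, SOAT1 ranked 1 for MYBL1 and HMGA1 ranked 1 for MYBL2. The other genes named ranked 110 to 121 for MYB, 39 to 412 for MYBL1 and 8 to 37 for MYBL2. Between the members themselves the correlations over 9 libraries were −0.51 for MYB with MYBL1, 0.52 for MYB with MYBL2 and −0.38 for MYBL1 with MYBL2. In deviations from the group means they were 0.24, 0.56 and −0.17.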

How the data were processed

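Read counts per gene were deposited by the authors for each library as whole numbers, in STAR's table of unstranded, sense and reverse-strand columns. The tools listed in the submitters' processing notes are edgeR 3.14.0, DESeq, STAR 2.5.2a and R 3.3.1, and the builds are hg19 and GRCh37. No source used here gives the annotation release. Per the labels' protocols, libraries were made with a stranded total RNA kit after ribosomal RNA depletion and read as pairs of 75 bases. The authors also deposited a table per hairpin with probabilities (PPEE and PPDE, scores from 0 to 1) and folds (PostFC and RealFC, linear ratios), per the file headers. No source used here names the tool behind it.

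Of stranded reads, 94.7 to 95.1% lay in the reverse column, which was therefore used. Reads without a gene did not enter library sizes or tests: no feature 12.2 to 15.4%, ambiguous 2.49 to 2.68%, multimapped 4.57 to 5.49% and unmapped 2.75 to 4.34%. No pair of replicates was a duplicate, with a chi-square per degree of freedom of 25.2 to 78.9. Exon lengths came from GENCODE and promoters from RefSeq (GRCh38.p14), another build than that of the files, so no coordinates were joined. A symbol was found for 55698 of 60308 identifiers, which held 99.0% of reads.

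The test was edgeR 4.0.16 in R 4.3.3 (quasi-likelihood F-test, TMM scaling, filterByExpr, two-sided, Benjamini-Hochberg over all 18435 genes, threshold 0.05). It was checked on simulated counts drawn without any effect of the replicate number, so that check does not cover such an effect. A single fit held all 9 libraries, with 6 residual degrees of freedom. Alternatives were DESeq2 1.42.0, its size factors, no filter, the unstranded column, the 2 groups alone, each library left out and a replicate block. The replicate numbers of the titles pair the libraries in the data. Deviations from group means correlated at 0.139 to 0.764 (13004 genes) in all 9 same-number pairs and averaged 0.471. The 18 other pairs averaged −0.24. Deviations cancel within each group, so this negative average largely follows from that of the same-number pairs and is no separate evidence. No label ties the numbers to a day or batch. Blocked values are printed where they changed a call.

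The MYB family genes and the gene lists were chosen with earlier results of these data known. Named are, in each related list, genes that passed the threshold, up to 4 with the smallest unadjusted p per hairpin, the 3 most abundant and genes of a named complex or next to a member; for each member, the 5 genes most correlated with it. A gene that this rule names is not reported here. The block with each library left out and the germ line list were added after the files had been seen.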

Additional observations from a re-analysis of the deposited data

How the results depend on the processing

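The log2 fold changes of MYB and MYBL1 against shSCR kept their sign in all 15 alternatives. MYB ranged from −0.78 to −0.50 in shG9a_1 and from −0.53 to −0.27 in shG9a_4, and MYBL1 from 0.28 to 0.40 and from 0.35 to 0.48. That of MYBL2 turned to 0.0038 in shG9a_1 without shG9a_1 replicate 1 and to 0.0045 in shG9a_4 without shG9a_4 replicate 2, within its spread. All 450 values of the list medians stayed within the median SE of their genes.

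Counts of called genes depended on the setting, and the cause was not tested. In edgeR 7 genes were called in shG9a_1, 5 in shG9a_4 and 0 between the hairpins. DESeq2 called 69, 21 and 6, and no filter gave 288, 49 and 106. The replicate block gave 143, 14 and 0. The unstranded column gave 1 and the 2 groups alone 0 in shG9a_4. Leaving out 1 library gave 0 to 10 in shG9a_1 and 0 to 7 in shG9a_4. With the block it gave 4 to 549 in shG9a_1, 1 to 26 in shG9a_4 and 0 to 17 between the hairpins.

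Of the family, the replicate block called 1 gene in shG9a_1 (MYB) and DESeq2 called 1 in shG9a_4 (MYBL1). With the block and 1 library left out, 0 to 2 were called in shG9a_1, MYBL1 without shG9a_1 replicate 2 and both MYB and MYBL1 without shG9a_4 replicate 2. Of the related lists, no filter called 2 genes in shG9a_1 (JUN and PTGS2) and 2 in shG9a_4 (CXCR4 and PTGS2). The block called 2 in shG9a_1 (JUN and PTGS2) and 1 in shG9a_4 (PTGS2). Of the 5 genes most like each member, deviations from group means kept 2 for MYB, 1 for MYBL1 and 1 for MYBL2, and Spearman's correlation kept 2, 2 and 1. Depth limits MYB most, with its lowest library at 168 reads.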
